A study of Mus musculus with 8 samples.

Results

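The genes described here are those that cells use to show peptides to T cells: every gene of the mRNA table whose symbol starts with H2-, the mouse major histocompatibility complex (MHC), together with B2m, Tap1, Tap2, Tapbp, Cd74, Ciita, Nlrc5, Erap1 and Calr. The rule uses names alone, but it was set with earlier results of these data known. There are 51 of them among the 22552 genes in the table. The H2- genes were sorted into 30 class I chains, 10 class II chains and 2 genes, H2-Ke2 and H2-Ke6, that carry an H2- symbol but encode no MHC chain.

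Brown adipose tissue, a fat depot that burns fuel for warmth, was taken from mice at 2 months. Null mice (genotype mmu-mir-193b -/-) lack the microRNAs 193b and 365-1 and were set against WT mice (mmu-mir-193b +/+). The strain of both groups is given as 129SV::FVB/N::C57BL/6. The breeding notes describe deletion of a floxed allele by MMTV-Cre, with the transgene then bred away. The labels describe 3 Null and 3 WT mRNA libraries, but the deposited table holds 1 combined value per genotype, the Null pool and the WT pool. The table gives no spread between mice and no depth, so no difference below has a replicate check and no test could be run. The values are FPKM, a fragment count scaled by transcript length and by library size, so that levels can be compared between genes.

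In the authors' deposited table for the small RNA libraries, 1 per genotype, miR-193b-3p stood at 11.5 in the Null library and 3705 in the WT library, and miR-365-1-5p at 0.0821 in Null and 11.8 in WT, in values headed RPM. The brown fat markers Ucp1 (2487 FPKM in Null and 3016 FPKM in WT) and Cidea (2717 FPKM in Null and 2615 FPKM in WT) were abundant in both pools.

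Class I molecules are made by nearly all nucleated cells. Each is a heavy chain bound to beta-2 microglobulin, and it carries peptides cut by the proteasome, pumped into the endoplasmic reticulum by the Tap transporter and fitted with help from tapasin and calreticulin. Class II molecules are pairs of an alpha and a beta chain made mainly by dendritic cells, B cells and macrophages; the invariant chain Cd74 guides them to endosomes, where H2-DM loads them. Nlrc5 switches on class I genes and Ciita switches on class II genes, both through a shared promoter module with X and Y boxes. Classical class I promoters also hold a kappa B element and an interferon response element.

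Presentation genes were mostly higher in Null brown fat, class I chains by a wider median than class II chains. In bulk tissue a difference in the number of cells of a type and a difference in RNA per cell cannot be told apart. Differences are given as log2((Null + 1)/(WT + 1)) of FPKM, which understates the change of low genes, and a gene was called higher or lower at 1.5-fold or more on that scale; a fold is the plain ratio of FPKM. Of the 51 members, 29 reached a mean of 1 FPKM, and 9 of these were called higher and 0 lower. Of the 9, H2-T10 reached that mean only through the Null pool, so its call had to be higher. Over all 11597 genes with such a mean 7.87% were called higher and 6.75% lower. Only 1 of the 9, H2-T9, was called at 2-fold. With a median log2 ratio of 0.37, the 29 included 27 above 0 and 2 below it, where 50.6% of all genes were above 0. The 2 below were H2-Q10 and Tapbp, and 8 more turned negative with the columns scaled to the same sum.

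Class I transcripts were abundant and mostly higher in Null brown fat. The chain H2-K1, a classical molecule that presents peptides to CD8 T cells, was at 364 FPKM in the Null pool and 257 FPKM in the WT pool, 1.42-fold. Its classical partner H2-D1 was at 324 FPKM in Null and 239.8 FPKM in WT, 1.35-fold. Of the 14 class I chains with a mean of at least 1 FPKM, 13 had a higher value in Null, of which H2-T22 and H2-T24 turned lower with the columns scaled to the same sum or upper quartile, and 1, H2-Q10, had a lower value. The median log2 ratio of the 14 chains was 0.58, against 0.01 over all genes with such a mean. Of the chains 7 were called higher and 0 lower, against 7.87% and 6.75% of all genes.

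H2-Q10 was the exception. This gene, known for a soluble class I molecule secreted by the liver, was at 213 FPKM in Null and 281 FPKM in WT, 0.757-fold, a log2 ratio of -0.40. In WT it was the most abundant class I chain, 1.10 times H2-K1, and in Null it was at 0.584 times H2-K1. Its share of all class I FPKM was 20.3% in Null and 32.3% in WT. Because class I genes share long near-identical stretches, fragments can be assigned to the wrong one, and each gene's value is uncertain for that reason. H2-K1, H2-D1 and H2-Q10 summed to 901 FPKM in Null and 777 FPKM in WT, 1.16-fold, which is less than the difference of H2-K1 or H2-D1 alone. How fragments were shared among copies is not given in the sources used here, and its part in these values was not tested.

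**Figure D1:**
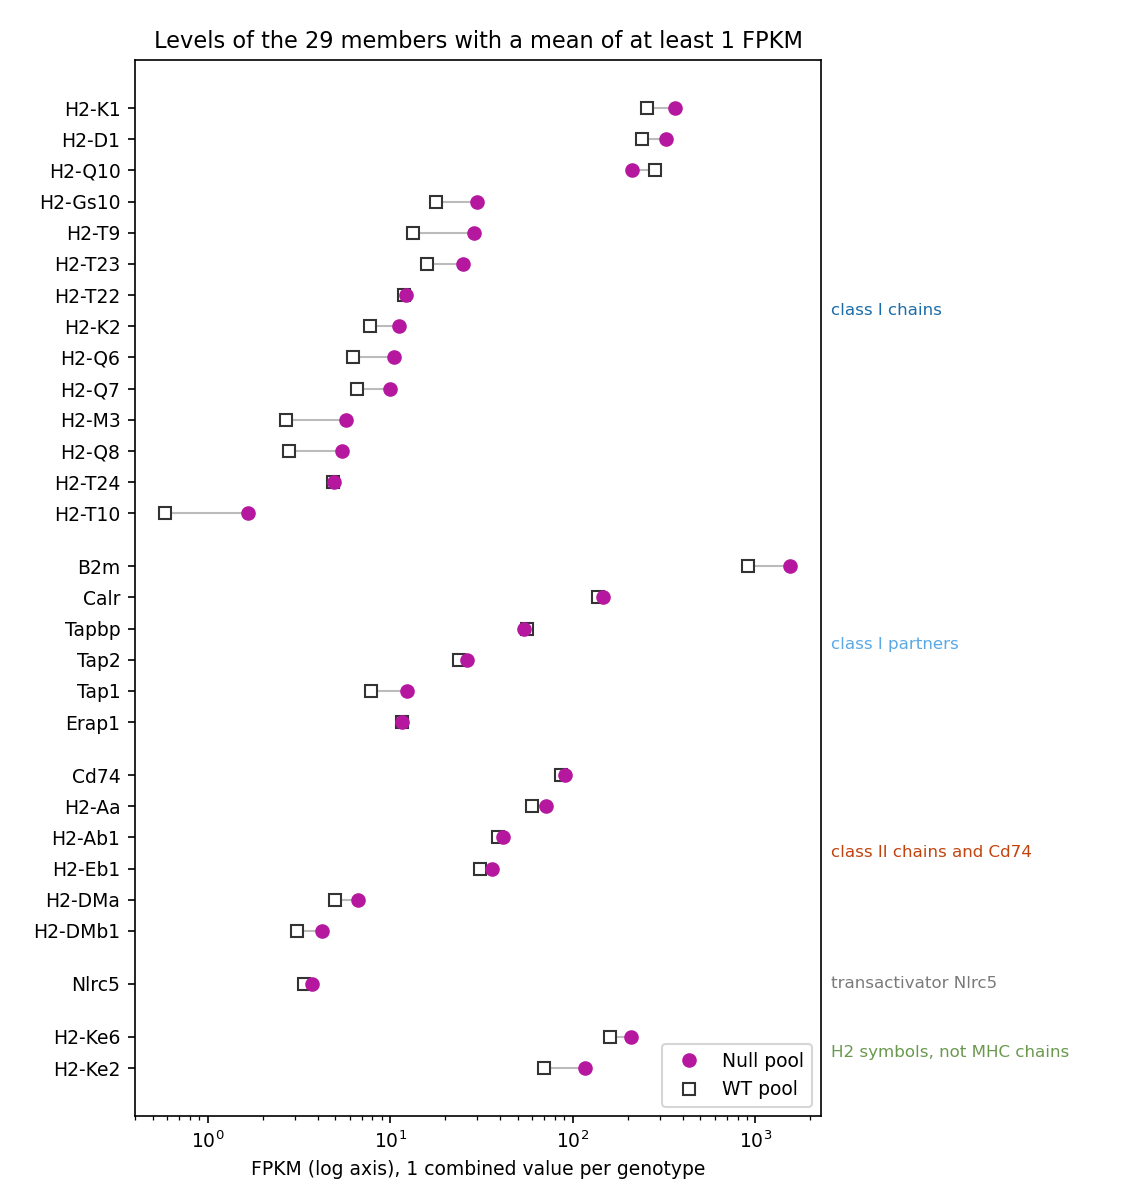
FPKM on a log axis for the 29 members with a mean of at least 1 FPKM, with filled circles for the Null pool and open squares for the WT pool (1 combined value each, no error). B2m is the highest in both pools, at 1542 FPKM in Null and 917 FPKM in WT, and H2-Q10 is the class I chain whose square lies to the right of its circle.

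The promoters of H2-K1, H2-D1, H2-Q6, H2-Q7 and H2-Q10 are shown because they resemble one another while the ratio of H2-Q10 differed. Its log2 ratio was -0.40, and those of the others ranged from 0.43 (H2-D1) to 0.66 (H2-Q6). Beside them, the promoters of B2m, H2-Aa and H2-Eb1 are shown as the light chain and class II. The stretches are the 200 bases before each start, 5′ to 3′ on the strand of the gene, from RefSeq on GRCm38.p6. The class I stretches are H2-K1 at chr17:34000348-34000547 (minus strand), H2-D1 at chr17:35262894-35263093, H2-Q6 at chr17:35424650-35424849, H2-Q7 at chr17:35438955-35439154 and H2-Q10 at chr17:35469889-35470088 (all plus strand). The light chain gene B2m is at chr2:122147487-122147686 (plus strand). The class II genes are H2-Aa at chr17:34287824-34288023 (minus strand) and H2-Eb1 at chr17:34305667-34305866 (plus strand). Capitals mark the letters, on either strand, of the motifs CCAAT (Y box), TGACG (in the X box), GAANNGAAA (relaxed interferon response element), GGGANTTCC (short kappa B element), the strict interferon response element (GAAA, then NN, then GAAA) and the full kappa B element (GGGG, then ATT, then CCCC); motifs may overlap.
H2-K1: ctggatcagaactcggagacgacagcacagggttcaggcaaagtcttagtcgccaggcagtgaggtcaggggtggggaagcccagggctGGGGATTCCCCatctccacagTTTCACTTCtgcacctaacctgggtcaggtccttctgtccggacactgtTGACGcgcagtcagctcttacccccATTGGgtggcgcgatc
H2-D1: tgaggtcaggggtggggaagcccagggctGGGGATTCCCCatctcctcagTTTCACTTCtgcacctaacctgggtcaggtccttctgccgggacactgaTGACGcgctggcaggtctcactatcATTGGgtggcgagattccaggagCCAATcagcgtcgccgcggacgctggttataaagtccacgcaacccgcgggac
H2-Q6: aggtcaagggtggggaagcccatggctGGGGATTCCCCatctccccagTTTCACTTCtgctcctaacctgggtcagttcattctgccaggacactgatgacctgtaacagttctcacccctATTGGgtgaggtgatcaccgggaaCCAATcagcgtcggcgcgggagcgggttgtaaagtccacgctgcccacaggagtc
H2-Q7: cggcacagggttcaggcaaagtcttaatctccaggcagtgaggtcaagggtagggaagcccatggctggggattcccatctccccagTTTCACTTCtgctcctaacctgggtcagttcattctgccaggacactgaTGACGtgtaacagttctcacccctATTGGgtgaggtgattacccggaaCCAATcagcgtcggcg
H2-Q10: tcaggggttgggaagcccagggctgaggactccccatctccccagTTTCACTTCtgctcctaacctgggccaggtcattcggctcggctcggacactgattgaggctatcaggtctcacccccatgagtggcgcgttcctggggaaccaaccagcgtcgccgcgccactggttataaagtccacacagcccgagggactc
B2m: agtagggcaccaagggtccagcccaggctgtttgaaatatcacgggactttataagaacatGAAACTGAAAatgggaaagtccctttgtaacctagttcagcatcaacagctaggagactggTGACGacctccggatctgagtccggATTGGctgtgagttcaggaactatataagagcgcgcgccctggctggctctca
H2-Aa: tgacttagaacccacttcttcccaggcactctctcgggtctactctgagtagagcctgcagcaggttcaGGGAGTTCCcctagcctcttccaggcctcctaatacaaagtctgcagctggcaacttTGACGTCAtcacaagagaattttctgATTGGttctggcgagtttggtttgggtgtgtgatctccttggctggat
H2-Eb1: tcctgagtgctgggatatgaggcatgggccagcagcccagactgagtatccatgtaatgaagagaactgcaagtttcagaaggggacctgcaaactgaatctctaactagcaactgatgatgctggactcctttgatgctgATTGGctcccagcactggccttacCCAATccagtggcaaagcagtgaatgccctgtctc

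In the whole windows, from 250 bases before the start to 50 bases after it, the full kappa B letters were present in H2-K1, H2-D1 and H2-Q6, and in 0.0304% of all 32851 promoter windows. The relaxed interferon letters GAANNGAAA were present in 7 of the 9 measured class I chains that had a window, H2-Q10 among them, in 0 of 4 class II chains and in 7.52% of all windows. The full kappa B and relaxed interferon letters were added later, as class I forms. The planned strict interferon and short kappa B letters were present in 2 and 1 of the 9. Class I promoters also resemble one another, so no enrichment can be read from these counts. H2-T22 and H2-T23 held the strict interferon letters, as did the partners B2m and Erap1, against 3.44% of all windows. The strict and relaxed letters differ in spacing, so a strict match is not also a relaxed one, and they are separate patterns. The full kappa B letters likewise do not contain the short ones. CCAAT was present in 8 of the 9 class I windows, all but that of H2-Q10, and in 37.4% of all windows. TGACG was present in 6 of the 9, in the partners B2m and Tap1 and in H2-Aa, and in 20.8% of all windows. The short kappa B letters GGGANTTCC were present in H2-Gs10 and H2-Aa, and in 1.68% of all windows. In these stretches H2-K1 and H2-D1 were 91.4% identical over 139 aligned positions and H2-Q6 and H2-Q7 96.9% over 161. H2-D1 was 81.7% identical to H2-Q10 over 202 and 83.3% to H2-Q6 over 198, and H2-K1 was 83.0% identical to H2-Q10 over 141. H2-Q10 was 77.2% identical to H2-Q6 over 202 and 77.3% to H2-Q7 over 163. The aligned lengths differ, so these shares are not like for like. The window of H2-Q10 held GAANNGAAA and none of the other letters searched. These are matches of letters in a reference sequence, and nothing was measured at them here.

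**Figure D2:**
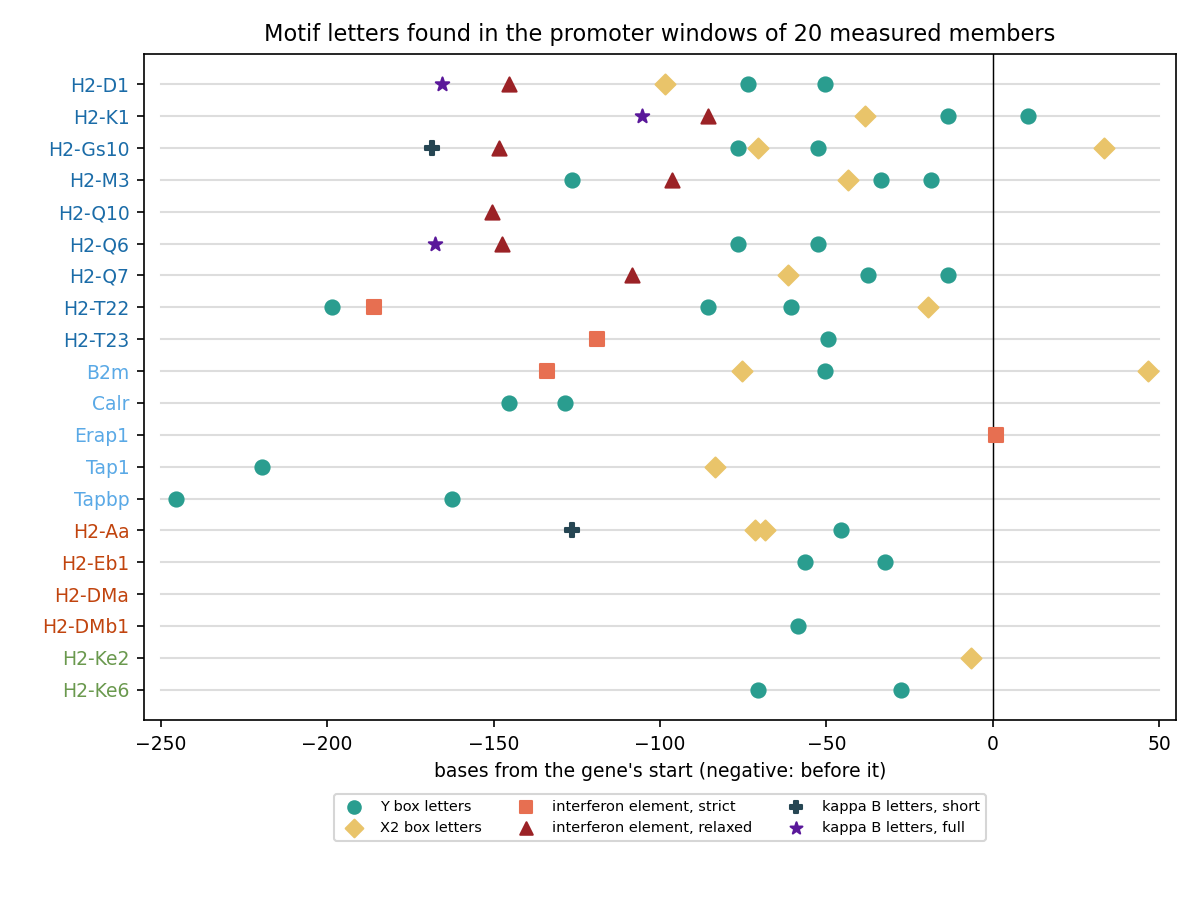
Positions of the motif letters in the promoter windows of the 20 measured members that had one; the x axis is the distance in bases from the gene's start and each row is a gene. The rows of H2-D1 and H2-K1 hold kappa B, interferon, X box and Y box letters in the same order towards the start, while the row of H2-Q10 holds 1 match.

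The non-classical class I chains, which are less variable between mice and often serve special ligands or natural killer cells, held the widest differences, yet with H2-Q10 among them they summed to 360 FPKM in Null and 373 FPKM in WT. H2-T9, a member of the T-region family, was at 28.7 FPKM in Null and 13.3 FPKM in WT, 2.16-fold, and was the one member called higher at 2-fold (log2 ratio 1.06), where 2.17% of all genes were. H2-M3, which presents bacterial formylated peptides, was at 5.73 FPKM in Null and 2.68 FPKM in WT (0.87). H2-T23, which encodes Qa-1, a ligand of receptors on natural killer cells, was at 25.1 FPKM in Null and 15.9 FPKM in WT (0.62). H2-Gs10, which RefSeq lists as a synonym of H2-Q4, was at 29.8 FPKM in Null and 17.9 FPKM in WT (0.70). All of these were called higher, but H2-T23 (0.42) and H2-Gs10 (0.50) lost the call with the columns scaled to the same sum. H2-T10, listed as a transcribed pseudogene, was also called at 1.66 FPKM in Null and 0.586 FPKM in WT (0.75), but it reached the mean of 1 FPKM only through the Null pool. At its WT level any Null value that passed that filter would have been called, so its call had to be higher.

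Among the Q-region genes, whose products include the Qa-2 antigen, H2-Q6 was at 10.4 FPKM in Null and 6.22 FPKM in WT (0.66), H2-Q7 at 10.04 FPKM in Null and 6.60 FPKM in WT (0.54) and H2-Q8 at 5.42 FPKM in Null and 2.81 FPKM in WT (0.76). H2-Q6 and H2-Q8 were called and H2-Q7 was not. H2-Q7 was called with a pseudocount of 0.1 FPKM (0.60) and with quantile normalization (0.59), and H2-Q6 (0.47) and H2-Q8 (0.58) lost their calls with the columns scaled to the same sum. As near-identical copies they are better read together: H2-Q6 to H2-Q9 summed to 26.5 FPKM in Null and 15.8 FPKM in WT, 1.67-fold. The pseudogene H2-K2 was at 11.2 FPKM in Null and 7.76 FPKM in WT (0.48). H2-T22, a ligand of gamma delta T cells, differed little at 12.2 FPKM in Null and 11.9 FPKM in WT (0.04), as did H2-T24 at 4.93 FPKM in Null and 4.89 FPKM in WT (0.01). H2-T9, H2-T10 and H2-T22, which resemble one another, summed to 42.5 FPKM in Null and 25.7 FPKM in WT, 1.65-fold.

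Of the 16 class I chains under a mean of 1 FPKM, 8 were listed at 0 in both pools: H2-M1, H2-M11 and the 6 H2-M10 genes, which are known from the vomeronasal organ. The highest of the rest was H2-M9, at 0.839 FPKM in Null and 0.982 FPKM in WT. H2-T3 was at 0.0348 FPKM in Null and listed at 0 in WT, and H2-Q9 was at 0.544 FPKM in Null and 0.191 FPKM in WT. These levels are too low to compare.

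The partners of class I were uneven. B2m, the light chain, was at 1542 FPKM in Null and 917 FPKM in WT, 1.68-fold, a log2 ratio of 0.75, and it was called higher, a call lost with quantile normalization (0.47) and with the columns scaled to the same sum (0.53). It ranked 49 among all genes by level in Null and 76 in WT. Set against the sum of all class I chains, B2m stood at 1.47 to 1 in Null and 1.05 to 1 in WT. Tap1, which forms the peptide transporter with Tap2, was at 12.3 FPKM in Null and 7.90 FPKM in WT, a log2 ratio of 0.58 just under the threshold of 1.5-fold, which it passed with a pseudocount of 0.1 FPKM (0.64) and with quantile normalization (0.63). Tap2 was at 26.2 FPKM in Null and 23.8 FPKM in WT (0.14), so that the excess of Tap2 over Tap1 was 2.12-fold in Null and 3.01-fold in WT. The chaperones and the trimming enzyme differed little: calreticulin Calr was at 146 FPKM in Null and 138 FPKM in WT (0.08), tapasin Tapbp at 54.1 FPKM in Null and 56.4 FPKM in WT (-0.06) and the peptidase Erap1 at 11.6 FPKM in both (0.01). The ratio of Calr turned negative with quantile normalization (-0.10), and that of Erap1 with the columns scaled to the same upper quartile (-0.03). The 6 partners had a median log2 ratio of 0.11 (-0.10 with the columns scaled to the same sum). Of the 6, 1 was called higher and 0 lower, against 7.87% and 6.75% of all genes.

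Class II genes differed less than most class I genes. H2-Aa, the alpha chain of I-A, was at 71.1 FPKM in Null and 60.1 FPKM in WT (log2 ratio 0.24), and its beta chain H2-Ab1 at 41.8 FPKM in Null and 38.7 FPKM in WT (0.11, but -0.10 with the columns scaled to the same sum). The beta chain of I-E, H2-Eb1, was at 36.4 FPKM in Null and 31.0 FPKM in WT (0.22). The entry for its alpha chain, H2-Ea-ps, was listed at 0 in both pools; that gene is broken in C57BL/6 mice. The invariant chain Cd74 was at 90.6 FPKM in Null and 86.4 FPKM in WT (0.07, but -0.08 with quantile normalization). H2-DMa, at 6.68 FPKM in Null and 4.96 FPKM in WT (0.37), and H2-DMb1, at 4.22 FPKM in Null and 3.10 FPKM in WT (0.35), form the H2-DM dimer that exchanges peptides on class II.

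All 5 measured class II chains were higher in Null, 0 of them by 1.5-fold, a count near the 7.87% of all genes called higher. With the columns scaled to the same sum H2-Ab1 turned lower. The classical class II chains had a median log2 ratio of 0.22 and the H2-DM pair a median of 0.36. Below a mean of 1 FPKM were H2-Eb2 (0.0783 FPKM in Null and 0.0127 FPKM in WT), H2-DMb2 (0.405 FPKM in Null and 0.796 FPKM in WT), H2-Oa (0.124 FPKM in Null and 0.107 FPKM in WT) and H2-Ob (0.808 FPKM in Null and 0.130 FPKM in WT). H2-Oa and H2-Ob form H2-O, a brake on H2-DM known from B cells.

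**Figure D3:**
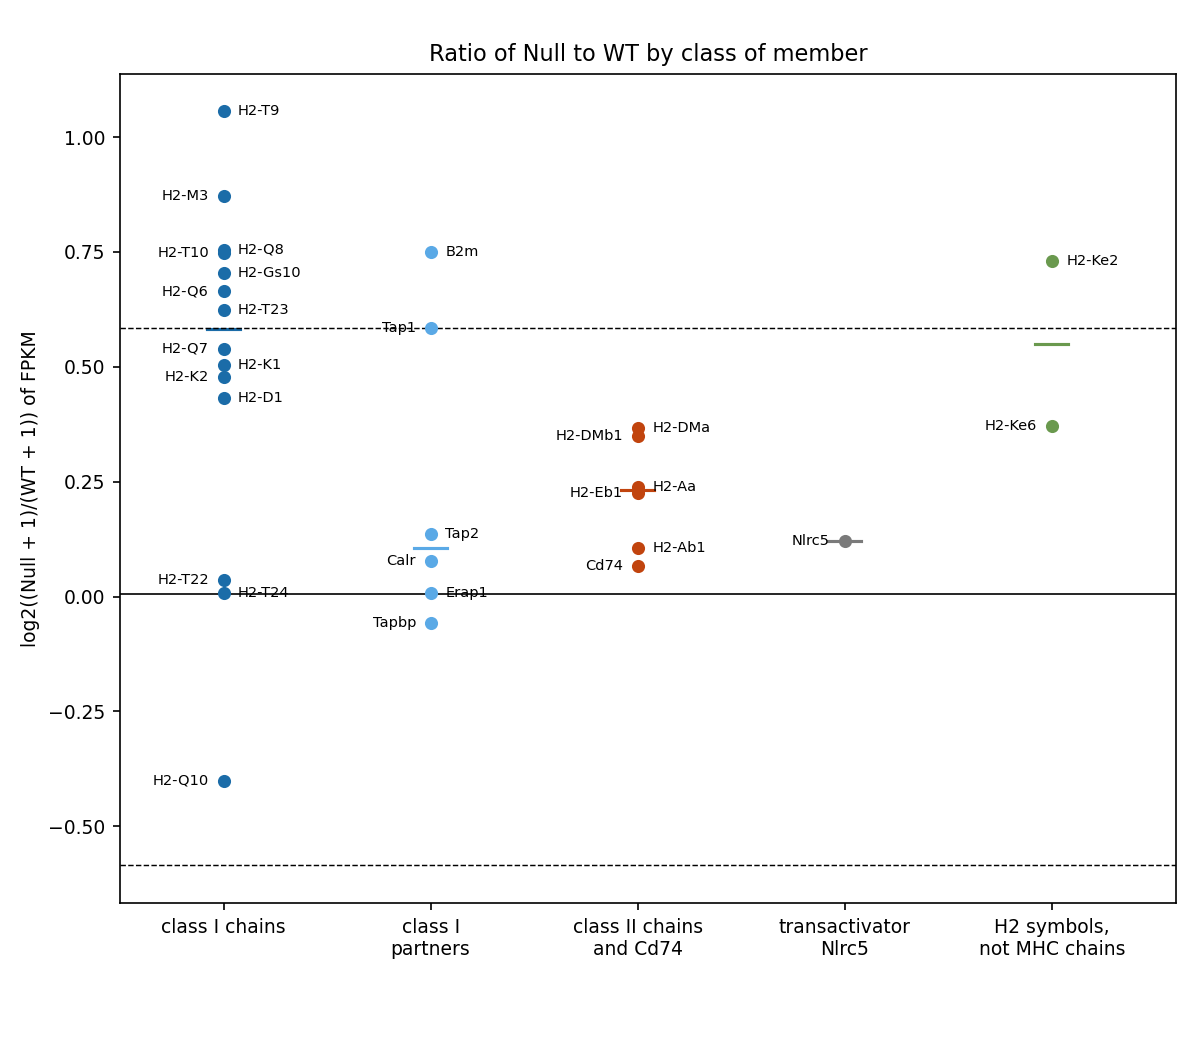
Each point is the log2 ratio of a measured member, log2((Null + 1)/(WT + 1)) of FPKM, by class; short bars are class medians, the solid line is the median of all genes and dashed lines mark 1.5-fold. Class I chains spread from -0.40 (H2-Q10) to 1.06 (H2-T9), while class II chains and Cd74 lie between 0.07 and 0.37.

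The contrast between the classes depends on how it is read. Gene by gene, 7 of 14 class I chains and 0 of 5 class II chains were called higher, against 7.87% of all genes. The 7 include H2-T10, whose call was fixed by the filter, and 0 of 5 is near the share of all genes. By summed FPKM the classes were closer: class I chains came to 1048 FPKM in Null and 870 FPKM in WT, 1.21-fold, and class II chains to 162 FPKM in Null and 139 FPKM in WT, 1.16-fold. Class I exceeded class II by 6.49-fold in Null and 6.26-fold in WT, an order that was reversed without H2-K1 (4.23-fold in Null and 4.41-fold in WT). Without H2-Q10, a choice made after its value was seen, class I summed to 836 FPKM in Null and 589 FPKM in WT, 1.42-fold. All genes of the table together summed to 590327 FPKM in Null and 508701 FPKM in WT, 1.16-fold. With the columns scaled to the same sum the median of all genes moved to -0.18, 3 class I chains were called higher and H2-Q10 was called lower, and 8 ratios turned negative, those of H2-Ab1, H2-T22, H2-T24, Cd74 (-0.15), Tap2 (-0.07), Calr (-0.14), Erap1 and Nlrc5.

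The transactivators differed little. Nlrc5, the activator of class I genes, was at 3.75 FPKM in Null and 3.37 FPKM in WT (log2 ratio 0.12, and -0.05 with the columns scaled to the same sum). Ciita, the activator of class II genes, was under 1 FPKM in both, at 0.507 FPKM in Null and 0.534 FPKM in WT. Of 12 other factors that bind MHC promoters, 0 were called in either direction, and their median log2 ratio was 0.11. Over all genes 7.87% were called higher and 6.75% lower, so a count of 0 among 12 is near those shares. Among the most abundant were Irf1, an activator in interferon signalling (28.7 FPKM in Null and 22.1 FPKM in WT, 0.36), and Rela, a kappa B factor (17.5 FPKM in Null and 21.1 FPKM in WT, -0.26).

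Immunoproteasome genes were higher in Null brown fat. Of 12 genes of peptide supply and class I folding, 4 were called higher and 2 lower, against 7.87% and 6.75% of all genes. The median log2 ratio of the list was 0.22, and 0.02 with the columns scaled to the same sum. The 4 were the immunoproteasome subunits Psmb8 (36.5 FPKM in Null and 16.6 FPKM in WT, 1.09), Psmb9 (38.6 FPKM in Null and 18.8 FPKM in WT, 1.00) and Psmb10 (38.4 FPKM in Null and 21.2 FPKM in WT, 0.83), which shift the cut towards peptides that fit class I, and the proteasome activator Psme1 (104 FPKM in Null and 67.7 FPKM in WT, 0.61). The 2 called lower were the tapasin relative Tapbpl (16.1 FPKM in Null and 25.4 FPKM in WT, -0.63) and the peptidase Lnpep (7.09 FPKM in Null and 13.4 FPKM in WT, -0.83). The chaperone Hspa5 had the highest mean level of the list, at 156 FPKM in Null and 165 FPKM in WT (-0.08).

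Of 6 measured proteases and related genes that prepare class II peptides, 0 were called in either direction. That is near the 7.87% of all genes called higher and the 6.75% called lower. The most abundant were cathepsin D, Ctsd, at 951 FPKM in Null and 1049 FPKM in WT (-0.14), and cathepsin B, Ctsb, at 424 FPKM in Null and 359.7 FPKM in WT (0.24). Among 5 measured MHC-like molecules encoded elsewhere, the antibody receptor Fcgrt was at 128 FPKM in Null and 118 FPKM in WT (0.12) and Cd1d1, which presents lipids, at 102 FPKM in Null and 85.1 FPKM in WT (0.25). Mr1, which presents vitamin metabolites, was called lower at 8.75 FPKM in Null and 15.3 FPKM in WT (-0.74).

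Most members lie in the MHC region of chromosome 17, where class I, class II and unrelated genes alternate. In RefSeq's order of genes on GRCm38.p6, Psmb9, Tap1, Psmb8 and Tap2 are neighbours within the class II part. Along that run the log2 ratios were 1.00, 0.58, 1.09 and 0.14. Between Tapbp and H2-M2, 6 of 22 measured members were called higher (median 0.40), H2-Ke2 and H2-T10 with its fixed call among them. H2-Q8 and H2-T9, also called higher, are not among the 22. Of the other measured genes there, 10 of 80 were called higher (12.5%, median 0.06), against 7.87% of all genes. Those 10 included Psmb8 and Psmb9, the ribosomal protein gene Rps18 (93.8 FPKM in Null and 28.3 FPKM in WT) and the myeloid genes Aif1 and Lst1. Of 49 measured genes of the region listed for having no part in presentation, 2 were called higher (Clic1 and Ppp1r11) and 3 lower (Prrc2a, Ddr1 and Ppp1r10), with a median of 0.04; the most abundant was Csnk2b, a protein kinase subunit, at 92.1 FPKM in Null and 89.5 FPKM in WT. H2-Ke2, the prefoldin subunit Pfdn6, was called higher at 116 FPKM in Null and 69.7 FPKM in WT (0.73, but not called at 0.52 with the columns scaled to the same sum), and H2-Ke6, a steroid dehydrogenase, was at 208 FPKM in Null and 160.3 FPKM in WT (0.37). Class I and class II genes differ in sequence between mouse strains, and the mice were of mixed background. The MHC type of the mice is not given in the sources used here, and its part in these values was not tested.

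**Figure D4:**
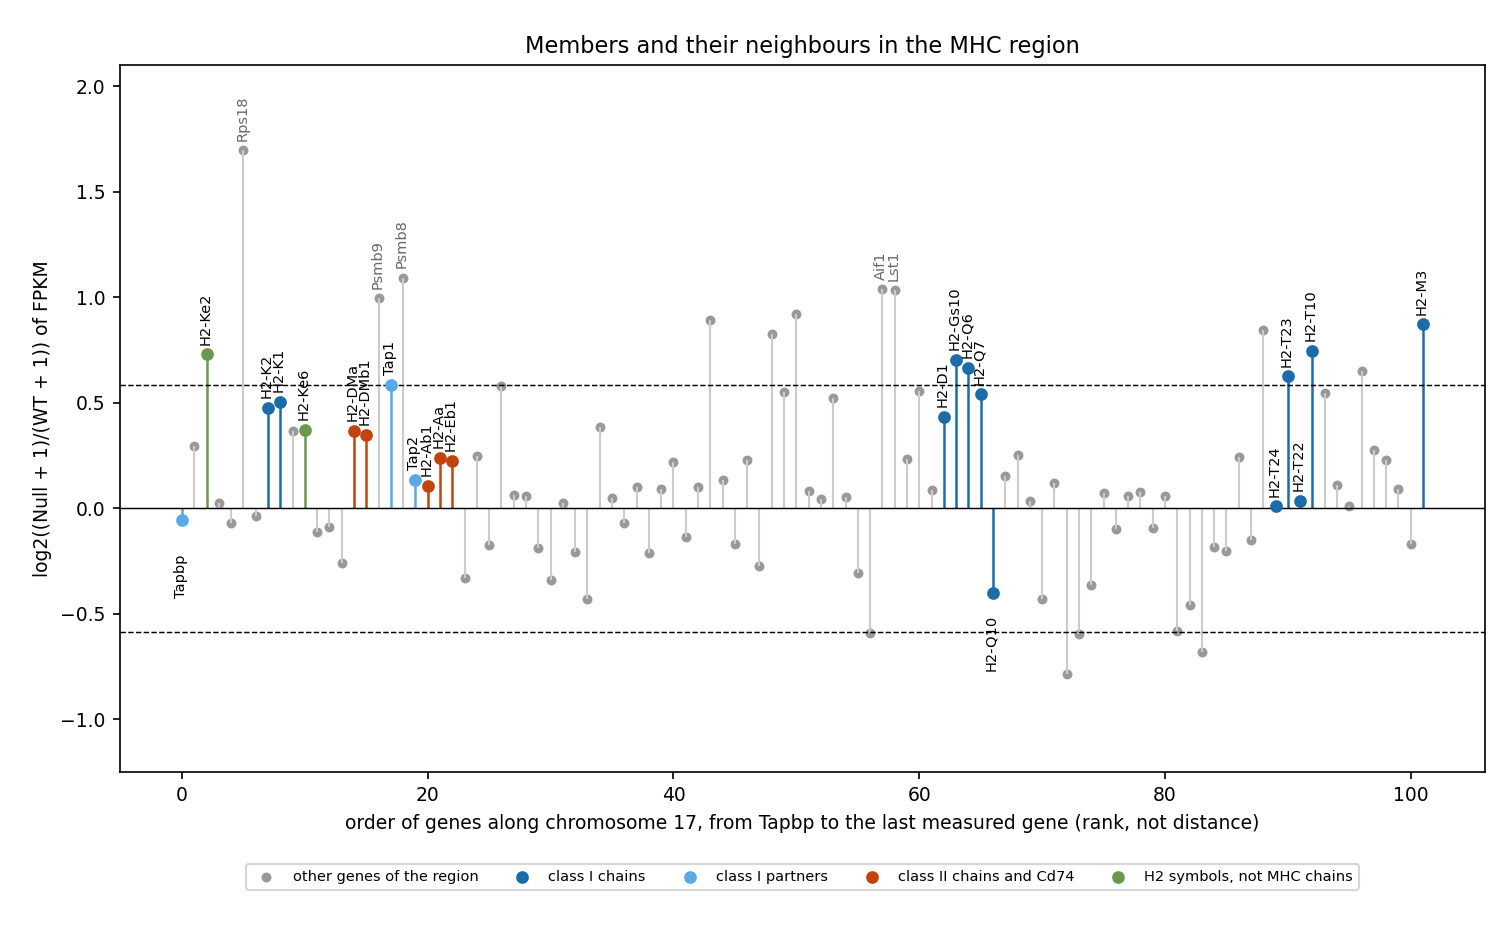
Log2 ratios of measured genes in their order along chromosome 17 (rank, not distance), with members in colour and other genes in grey; dashed lines mark 1.5-fold. Higher genes stand next to genes near 0, as H2-T23 (0.62) does beside H2-T22 (0.04) and H2-T24 (0.01).

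The summed markers of each of 4 immune cell types were also higher in the Null pool, where the sum of all genes was itself 1.16-fold that in WT. Macrophage markers, 10 genes, summed to 112 FPKM in Null and 83.6 FPKM in WT, 1.34-fold, with 8 of 10 higher. Lyz2 was the most abundant (73.9 FPKM in Null and 55.9 FPKM in WT), and 2 of 9 measured genes were called higher, Cd68 (0.65) and Cd14 (0.66). The 2 lower were Csf1r (-0.01) and Cd163 (-0.15). Dendritic cell markers, 9 genes, summed to 17.2 FPKM in Null and 14.1 FPKM in WT, 1.21-fold and close to the sum of all genes. Of the 9, 8 were higher in Null, but only 5 reached a mean of 1 FPKM, 4 of them higher. The most abundant, Zbtb46, was lower (6.29 FPKM in Null and 7.92 FPKM in WT). Batf3 (2.68 FPKM in Null and 0.823 FPKM in WT) was called higher, though it reached a mean of 1 FPKM only through the Null pool. The same holds for the mean of Cd209a (1.51 FPKM in Null and 0.713 FPKM in WT), which was not called. B cell markers, 8 genes, summed to 4.20 FPKM in Null and 1.15 FPKM in WT, with 7 of 8 higher. Cd79b (1.97 FPKM in Null and 0.356 FPKM in WT) was the 1 B cell marker with a mean of 1 FPKM, which it reached only through the Null pool, so its call had to be higher. T and natural killer cell markers, 9 genes in the table, summed to 3.82 FPKM in Null and 1.05 FPKM in WT, all 9 higher and none with a mean of 1 FPKM. As with the low class I chains, levels under that mean are too low to compare. The sums and counts of B, T and natural killer cell markers therefore cannot show a difference in such cells. No marker of these 4 lists was listed at 0, although some were low, such as Cd3e (0.383 FPKM in Null and 0.0897 FPKM in WT). The part of such cells in the values of the members was not tested.

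Genes known for short and for long mRNAs had medians on opposite sides of 0. The median log2 ratio of ribosomal protein genes, whose mRNAs are short, was 0.88; 47 of the 66 measured were called higher and 1 lower. For general genes known for very long mRNAs the median was -0.47, with 22 of 22 below 0 and 6 called lower. The class I median of 0.58 and the class II medians of 0.22 and 0.36 lie between these values. No transcript lengths were used here, and the part of length in the ratios of the members was not tested.

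**Figure D5:**
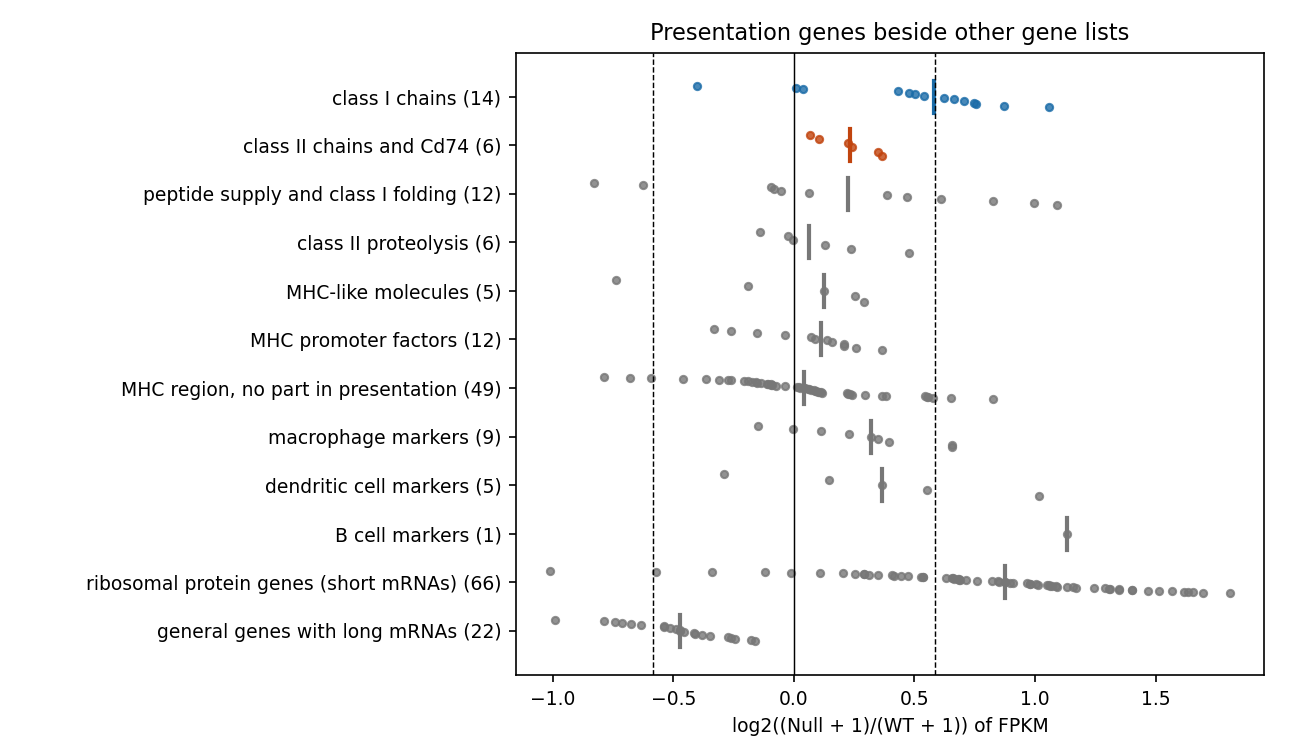
Log2 ratios, log2((Null + 1)/(WT + 1)) of FPKM, of measured class I and class II members (colour) and of other gene lists (grey), 1 point per gene with the number of genes in brackets; bars are medians and dashed lines mark 1.5-fold. The class I median of 0.58 lies below that of ribosomal protein genes (0.88) and above that of macrophage markers (0.32).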

How the data were processed

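The mRNA values are FPKM, deposited by the authors as a single column for Null and another for WT. How the authors combined the 3 libraries of a genotype is not given in the sources used here, and no depth is known, so no interval or test was possible. Per the submitters' processing notes the tools included CASAVA, TopHat, BWA, edgeR and DESeq, with build mm9; their roles, versions and annotation were not stated. The labels' protocols name poly(A) selection and a TruSeq RNA kit; whether strand was used in counting was not stated, so neighbours such as Tap1 and Psmb9 may share fragments.

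The microRNA values are headed RPM per the file headers and are taken here as the authors' deposited signal, since the 386 listed microRNAs sum to more than that name allows. The authors' deposited table also holds a ratio of Null to WT (fold) and p-values, as deposited, that compare 2 libraries; none is used here.

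Computed here were log2((Null + 1)/(WT + 1)) for the 11597 genes averaging 1 FPKM or more, calls at 1.5-fold or more, medians and sums (Python 3.11.15, pandas 2.3.3), checked on simulated data. Members and lists were chosen with earlier results of these data known; the ribosomal and long-mRNA lists, the relaxed interferon and full kappa B letters, and the sums over look-alike genes were added later. Named genes were all measured members, and from each other list the most abundant and those past 2-fold, with others named after their values were seen. Some genes that this rule names are not reported here. RefSeq (GRCm38.p6) matched 50 of 51 members by symbol or synonym, all but H2-T9, and gave promoter windows for 20 of the 29 measured. Promoters were aligned with Biopython 1.88.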

Additional observations from a re-analysis of the deposited data

How the results depend on the processing

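The 7 class I chains called higher became 4 with a mean of at least 5 FPKM, 3 with the columns scaled to the same sum and 1 at 2-fold; scaling to the same sum also gave 1 chain called lower. The class I median log2 ratio of 0.58 was 0.63 with a pseudocount of 0.1 FPKM, 0.61 with quantile normalization, 0.38 with the columns scaled to the same sum and 0.02 with no filter on low values, which adds 16 chains under a mean of 1 FPKM. Called class I partners, 1, became 2 with a pseudocount of 0.1 FPKM and 0 with the columns scaled to the same sum or at 2-fold, and their median became -0.10 with that scaling. Called class II chains, 0, became 1 with no filter, H2-Ob. Over all members the 9 called higher became 3 with the columns scaled to the same sum, where 1 was called lower, and 1 at 2-fold. The sum of class I over that of class II, 6.49 in Null and 6.26 in WT, was 4.23 in Null and 4.41 in WT without H2-K1, so the order of the pools was reversed. Without H2-Q10 it was 5.17 in Null and 4.24 in WT. B2m lost its call with quantile normalization (0.47) and with the columns scaled to the same sum (0.53). The cause of these changes was not tested, apart from the filters, which change the genes counted. Scaling to the same upper quartile changed no count of calls. The alternative by protein length was not run, as no protein lengths were used here. No paired analysis was possible because the deposited table has 1 combined column per genotype, and for the same reason no replicate could be left out. Depth is unknown, so the precision of members at a few FPKM is unknown too.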

Other observations

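The first 727 genes of the deposited mRNA table are in order of the ratio of Null to WT, 331 of them higher in Null, the least by 1.64-fold, and 396 lower. The other genes follow in another order. H2-Gs10, at 1.66-fold, is the 1 member in that leading block. H2-T10 (2.83-fold), H2-T9 (2.16-fold), H2-M3 (2.14-fold), H2-Q8 (1.93-fold), B2m (1.68-fold), H2-Q6 (1.68-fold) and H2-Ke2 (1.67-fold) have wider ratios and stand outside it. How the block was chosen is not given in the sources used here.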
